A study of Mus musculus with 2 samples.

Results

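The genes that write, keep and remove cytosine methylation were followed in mouse embryonic stem (ES) cells labelled as Ago1 knockout. The set is 10 genes listed by symbol. Dnmt1, Dnmt3a and Dnmt3b are the DNA methyltransferases, Dnmt3l is their cofactor without catalytic activity, and Uhrf1 and Uhrf2 are methylation-binding ubiquitin ligases. Tet1, Tet2 and Tet3 are the methylcytosine dioxygenases and Tdg is a DNA glycosylase. All 10 were matched by Ensembl identifier in a table of 55421 genes. The series holds 2 libraries of polyadenylated RNA, replicates 1 and 2 of a single group, called KO1 and KO2 here. Both came from E14 ES cells of 129/Ola background, a line derived from blastocysts, with the genotype Ago1 knockout. They were grown on gelatin in medium with serum and leukaemia inhibitory factor. Whether KO1 and KO2 are distinct clones, distinct cultures or repeats of one is not stated in the labels, and the spread over them may therefore be technical. With no control library analysed here, nothing below measures an effect of losing Ago1.

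DNA methylation in mammals is laid down by DNMT3A and DNMT3B, with DNMT3L as a stimulating partner, and is copied after replication by DNMT1. UHRF1 recognises hemimethylated CpG sites and brings DNMT1 to them. TET enzymes oxidise methylated cytosine, and TDG cuts out the most oxidised forms so that base excision repair can restore an unmodified base. Mouse ES cells grown in serum are known for carrying both machineries at once.

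KO1 held 57048330 counts and KO2 54408708, and the common biological coefficient of variation between the libraries was 0.1934 over 13347 detected genes. Ago1, the targeted gene (chr4:126435012-126468583, minus strand, GRCm38), kept 1497 counts in KO1 and 452 in KO2, or 26.35 and 8.27 counts per 1000000 (CPM), 3.18-fold more in KO1. Its log2 ratio of KO2 over KO1 was -1.67, and -1.73 after correction for transcript GC content. Of all tested genes, 0.0768% were over 2-fold lower in KO2 before correction. Why Ago1 differed between the libraries was not tested. The deleted stretch is not given in the labels, so gene-level counts do not check the knockout. All 10 ES cell markers, such as Pou5f1, Nanog and Zfp42, were detected at 1 CPM or more in both libraries. Among them Utf1 was over 2-fold higher in KO2, as 0.98% of tested genes were, at 66.5 CPM in KO1 and 196.6 CPM in KO2. Its transcript has a GC content of 63.5%. After the correction for GC content described below, its log2 ratio fell from 1.56 to 0.54, no longer over 2-fold. Of 10 fibroblast markers, Thy1 and Pdgfrb were detected, Lum and Postn had 0 counts, and the summed level was 25.6 CPM in KO1 and 30.5 CPM in KO2. Of 8 primitive endoderm markers 7 were detected, with a summed level of 158 CPM in each library. Their part in the levels below was not tested. In RNA from a whole culture, fewer cells expressing a gene and less RNA per cell cannot be told apart.

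All 10 genes were detected at 1 CPM or more in both libraries, beside 24.1% of all genes and 55.5% of protein-coding genes. Levels of the 10 genes are compared with each other as transcripts per 1000000 (TPM), which divides counts by the length of a gene's merged exons. Errors are the SD over n = 2 libraries. The order by mean TPM was Dnmt3l, Uhrf1, Dnmt1, Dnmt3b, Tet1, Tet2, Dnmt3a, Uhrf2, Tdg and Tet3. Of the 9 pairs of neighbours in that order, 7 did not overlap between libraries. Dnmt1 and Dnmt3b overlapped, and so did Dnmt3a and Uhrf2. The levels spanned from 661 ± 52.2 TPM for Dnmt3l to 3.15 ± 0.441 TPM for Tet3.

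**Figure D1:**
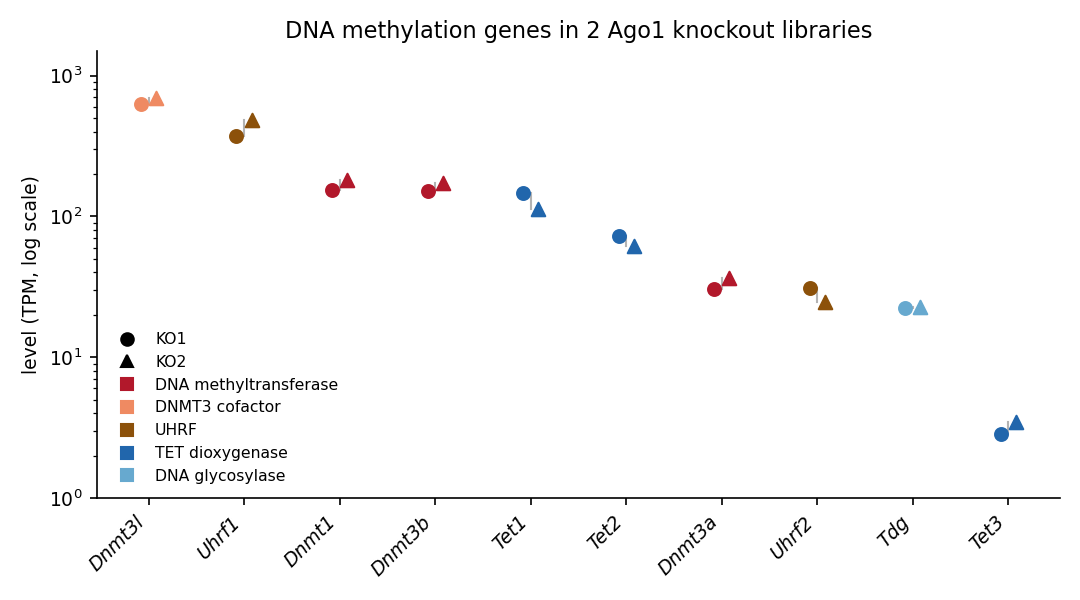
Level in TPM (log axis) of each of the 10 genes, ordered by mean, with KO1 as circles, KO2 as triangles and colours for the protein families. Dnmt3l and Uhrf1 stand highest and Tet3 lowest, and the ranges of KO1 and KO2 overlap between neighbours for Dnmt1 beside Dnmt3b and Dnmt3a beside Uhrf2.

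Dnmt1, the maintenance methyltransferase (chr9:20907209-20959888, minus strand, GRCm38), had 18625 counts in KO1 and 21449 in KO2. Its level was 155 TPM in KO1 and 181 TPM in KO2, a mean of 168 ± 18.1 TPM and above 95.5% of protein-coding genes. Dnmt3b, a de novo methyltransferase of early embryos (chr2:153649450-153687730, plus strand), had 12615 and 14256 counts, or 152 and 173 TPM. Its mean of 163 ± 15.4 TPM placed it level with Dnmt1. Dnmt3a, the de novo enzyme that predominates in many later tissues (chr12:3806007-3914443, plus strand), had 8282 and 9799 counts, or 30.6 and 36.6 TPM. All of the catalytic enzymes were therefore transcribed in both libraries, with Dnmt3a the lowest.

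Within the methyltransferases, Dnmt1 made up 46.1 ± 0.194% of the summed TPM, Dnmt3b 44.7 ± 0.409% and Dnmt3a 9.21 ± 0.215%. Of the de novo pair alone, Dnmt3b was 83.2% in KO1 and 82.6% in KO2. Counted as reads without length, the same pair gave Dnmt3b 59.8%, since the merged exons of Dnmt3a cover 16642 bases and those of Dnmt3b 5106 bases. With the longest transcript as the length it was 76.9%, so Dnmt3b led Dnmt3a on all of these scales. The composition of the family differed by less than 1 percentage point between KO1 and KO2.

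Dnmt3l, which has no methyltransferase activity and stimulates DNMT3A and DNMT3B (chr10:78041947-78063622, plus strand), was the most abundant of the 10 per unit length. It had 30363 counts in KO1 and 33568 in KO2, or 624 and 698 TPM, above 99.2% of protein-coding genes. Its level exceeded the summed level of Dnmt3a and Dnmt3b, which was 182 TPM in KO1 and 210.1 TPM in KO2. Dnmt3c, a rodent de novo enzyme of male germ cells that lies beside Dnmt3b and was looked up after its values were seen, had 2 and 5 counts.

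Uhrf1 (chr17:56303321-56323486, plus strand) had 25859 counts in KO1 and 33006 in KO2, or 373 and 482 TPM. Its mean of 427 ± 76.8 TPM was above 98.6% of protein-coding genes. Uhrf2, its paralogue (chr19:30030513-30093722, plus strand), had 4306 and 3413 counts, or 30.8 and 24.7 TPM. Uhrf1 was thus 92.4% of the pair in KO1 and 95.1% in KO2. The paralogues lay on opposite sides between the libraries, Uhrf1 higher and Uhrf2 lower in KO2.

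Tet1 (chr10:62804570-62908996, minus strand) had more reads than any of the other 9 genes in KO1, at 36808 counts, and 28260 counts in KO2. Per unit length its level was 146 TPM in KO1 and 114 TPM in KO2, below Dnmt1 and Dnmt3b in each library. Tet2 (chr3:133463679-133545139, minus strand) had 20005 and 16815 counts, or 72.9 and 61.9 TPM. Tet3, the TET enzyme known from the egg and the zygote (chr6:83362373-83459084, minus strand), had 770 and 929 counts, or 2.83 and 3.46 TPM. The 95% Poisson intervals, which cover the error of counting alone, did not overlap. They ran from 12.6 to 14.5 CPM in KO1 and from 15.9 to 18.1 CPM in KO2, before the GC correction described below. Tet1 was 64.7 ± 1.72% of the summed TET level, Tet2 33.7 ± 1.26% and Tet3 1.60 ± 0.463%. With the longest transcript as the length, Tet1 was 51.9% and Tet2 46.2%, and their levels then overlapped between the libraries. Tet3 remained the lowest of the 10 genes on every length scale used.

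Tdg (chr10:82629828-82650799, plus strand) had 1945 counts in KO1 and 1963 in KO2, or 22.2 and 22.7 TPM. It had the smallest spread of the set, with a mean of 22.5 ± 0.327 TPM. Another gene, Glt8d2, runs on the opposite strand under 6.83% of the Tdg exons, and none of the 10 genes had exons under another gene on its own strand. The processed pseudogene Tdg-ps had 11 and 19 counts, and Dnmt3l-ps1 and Dnmt3a-ps1 had 0 in each library. The sources used here do not give how reads shared with such copies were counted.

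The balance of writers to erasers was taken as the summed TPM of Dnmt1, Dnmt3a and Dnmt3b over that of Tet1, Tet2 and Tet3. In KO1 the sums were 337 and 222 TPM, a ratio of 1.52. In KO2 they were 391 and 179 TPM, a ratio of 2.18. Methyltransferase transcripts therefore outnumbered TET transcripts per unit length in both libraries, with a mean log2 ratio of 0.87 ± 0.37. Without scaling to length the mean log2 ratio was -0.28, with TET reads the more numerous. Dnmt3a and Dnmt3b alone were below the TET sum in KO1, at a log2 ratio of -0.28, and above it in KO2, at 0.23.

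**Figure D2:**
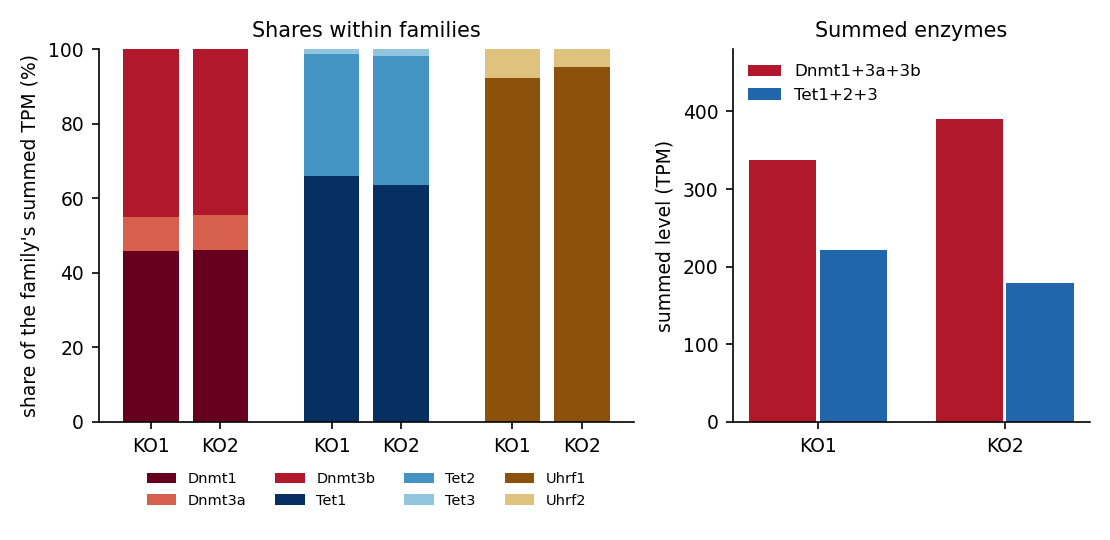
Left, share of each gene in the summed TPM of its family in KO1 and KO2. Right, summed TPM of the methyltransferases (red) and the TET enzymes (blue), with bars from 0. Family shares differ by less than 3 percentage points between the libraries, while the methyltransferase sum goes from 337 to 391 TPM and the TET sum from 222 to 179 TPM between KO1 and KO2.

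The balance was 1.44-fold higher in KO2 than in KO1, a log2 difference of 0.52. As summed counts, with 39522 methyltransferase and 57583 TET reads in KO1 against 45504 and 46004 in KO2, the log2 difference was 0.53 with a 95% counting interval from 0.50 to 0.55. Every interval here covers the error of counting alone and leaves out any other spread between libraries. It also treats reads as independent molecules, which PCR copies are not. Each methyltransferase was higher relative to Tet1 in KO2, by 0.56 to 0.62 on the log2 scale, and relative to Tet2 by 0.43 to 0.49. Relative to Tet3 none of the 3 was higher, with differences from -0.09 to -0.03. Tet3 therefore went with the methyltransferases and not with the other TET genes.

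The ratio of KO2 to KO1 was then taken gene by gene, on the log2 scale after scaling by trimmed mean of M values (TMM). Its 95% interval lay wholly above no difference in 6 of the 10 genes, beside 34.3% of 15619 genes with at least 50 counts. These were Uhrf1 at 0.41 (interval from 0.38 to 0.43), Tet3 at 0.33 (from 0.19 to 0.47), Dnmt3a at 0.30, Dnmt1 at 0.26, Dnmt3b at 0.23 and Dnmt3l at 0.20. It lay wholly below in 3, beside 31.2% of genes, namely Tet1 at -0.32 (from -0.35 to -0.30), Uhrf2 at -0.28 and Tet2 at -0.19. Tdg, at 0.07 with an interval from -0.02 to 0.16, included no difference. Intervals narrow as counts rise, and in KO1 the 10 genes had from 770 counts (Tet3) to 36808 (Tet1). The shares of all tested genes, here and below, are therefore not for genes of like depth. None of the 10 differed by over 2-fold with its whole interval, beside 0.98% of genes in the higher direction and 0.0768% in the lower. The median size of the log2 ratio, without its sign, was 0.269 over the 10 genes and 0.284 over all tested genes. These medians are close, but they are likewise not for genes of like depth.

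Transcript GC content moved with these ratios. Over 15603 genes, Spearman's rho between the log2 ratio and the GC content of the longest transcript was 0.811. Over the 10 genes it was 0.842, and both values are descriptions across genes that share the same pair of libraries. The 6 genes with an interval above no difference had a GC content of 51.9% to 53.95%. The other 4 (Tet1, Tet2, Uhrf2 and Tdg) had 43.7% to 47.9%. Tet3, at 53.4%, differed in direction from Tet1 and Tet2, and Uhrf2, at 47.2%, from Uhrf1, at 53.7%. For comparison, the 1630 genes with a GC content from 52% to 54% had a median log2 ratio of 0.21, and the 2246 genes from 40% to 44% had a median of -0.31.

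**Figure D3:**
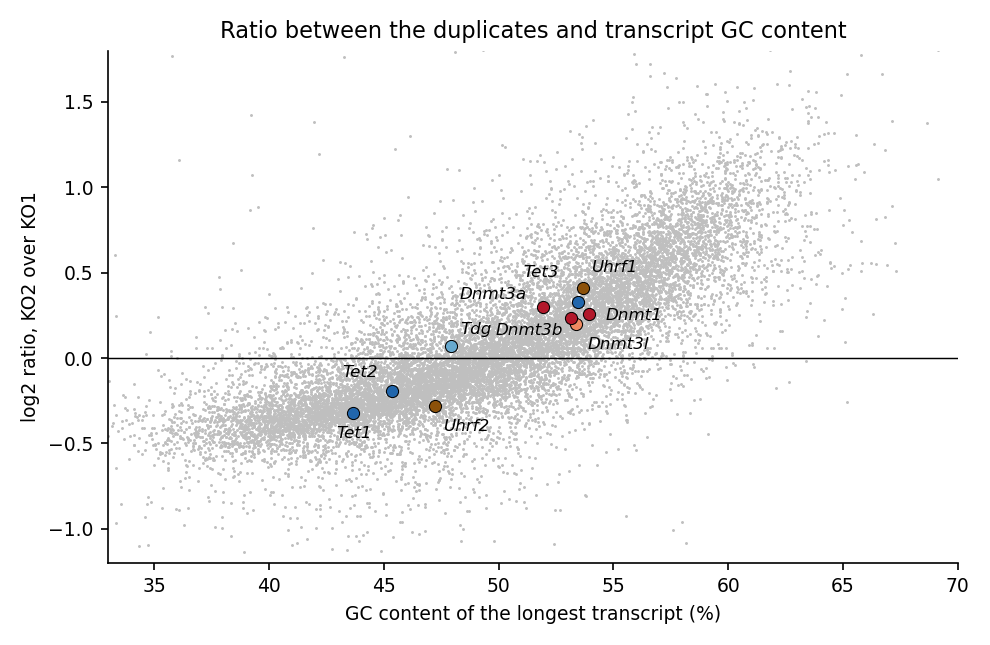
Log2 ratio of KO2 over KO1 against GC content of the longest transcript in percent, for genes with at least 50 counts (grey) and the 10 genes (coloured as in the plot of levels); 70 of 15603 genes lie outside the axes. The 10 genes lie within the rising grey cloud, with Tet1, Tet2 and Uhrf2 on its lower left and Dnmt1, Dnmt3b, Dnmt3l, Tet3 and Uhrf1 between 53.1% and 53.95% GC.

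After a loess correction of the ratio for GC content, the difference in balance was 0.05 on the log2 scale, in place of 0.52. The corrected ratio of Tet1 was -0.07, that of Tet2 0.00 and that of Dnmt3b 0.01. Dnmt1 was at -0.03 with an interval from -0.06 to 0.00. Tet3 was at 0.08 with an interval from -0.06 to 0.22, which included no difference. The corrected interval lay above no difference for Dnmt3a at 0.16, Tdg at 0.16 and Uhrf1 at 0.14, beside 19.8% of genes. It lay below for Uhrf2 at -0.16, Tet1 at -0.07 and Dnmt3l at -0.04, beside 20.4% of genes. With the GC content of merged exons in place of the longest transcript, Uhrf2 was at 0.04, with an interval from -0.02 to 0.11. Tet2 was then at 0.09 (from 0.06 to 0.12) and Uhrf1 at 0.05 (from 0.02 to 0.07). Whether the intervals of Uhrf2 and Tet2 included no difference therefore rested on which GC content was used. Of the 10 genes, 0 passed 2-fold after correction, beside 0.167% of genes higher and 0.0961% lower. The median size of the corrected ratio was 0.0736 over the set and 0.122 over all genes, again not matched for depth. A cause for the difference between KO1 and KO2 was not tested.

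**Figure D4:**
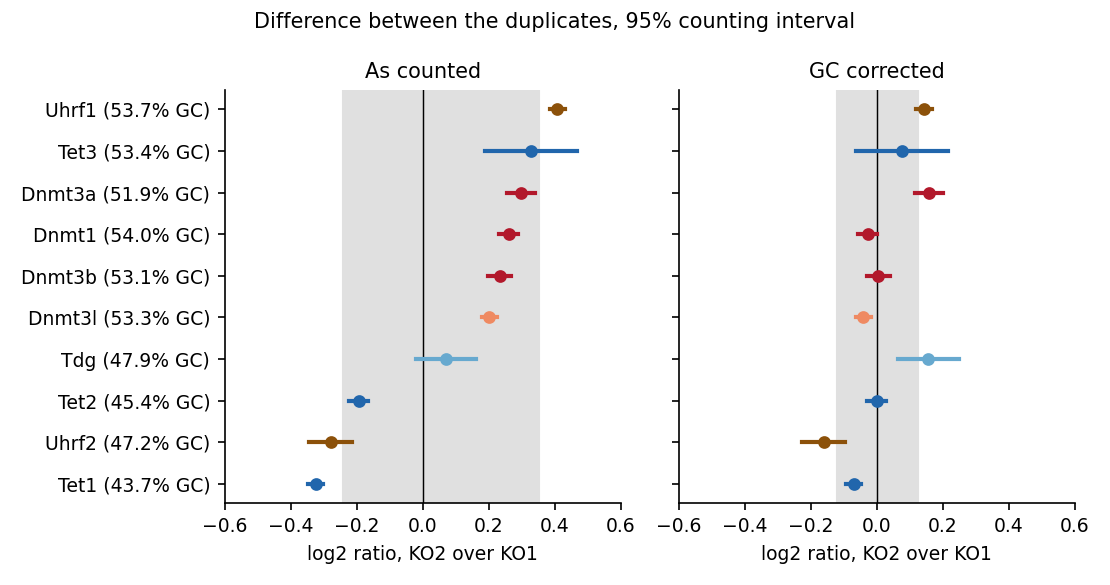
Log2 ratio of KO2 over KO1 with its 95% counting interval for each gene, as counted (left) and after correction for GC content (right); the grey band is the middle 50% of all genes. As counted the genes run from -0.32 for Tet1 to 0.41 for Uhrf1, and after correction from -0.16 for Uhrf2 to 0.16 for Dnmt3a.

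Argonaute proteins carry microRNAs, which recognise messenger RNAs mainly by pairing of their seed, bases 2 to 8, with the 3′UTR. MicroRNAs were not measured here. Seed matches in the 3′UTRs are shown because they differ between the members, and a match describes these letters only, not a working site. The seeds of 7 microRNA families were searched in the sense strand of 1 GENCODE M21 transcript per gene. The families were picked by name and not drawn from all microRNAs, so the shares below describe picked families only. The mature sequences below, from RefSeq on GRCm38.p6, have the seed in capitals.
miR-29a-3p: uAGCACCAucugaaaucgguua
miR-294-3p: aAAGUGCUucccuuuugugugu
miR-148a-3p: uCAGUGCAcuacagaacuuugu
The miR-29 seed is shared by miR-29a, miR-29b and miR-29c, and its match in DNA letters is TGGTGCT. The miR-294 seed is shared with miR-291a, miR-295, miR-302b and miR-302d, families known from ES cells, and its match is AGCACTT. It overlaps by 6 bases with the match of miR-17, GCACTTT. The match of miR-148a, miR-148b and miR-152 is TGCACTG. The other matches searched were TACTTGA for miR-26, GTACTGT for miR-101 and GGCAGCT for miR-22.

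The miR-29 match was present in 6 of the 10 genes, 29 times in all, beside 14.3% of 12085 detected genes with an annotated 3′UTR. Tet3 held 8 matches, Tet1 7, Tet2 5, Dnmt3a 5, Tdg 3 and Dnmt3b 1. Long 3′UTRs hold more matches by their length alone, and those of Tet1 and Dnmt3a have 7955 and 6696 bases beside a median of 982. Among genes with 3′UTRs of like length, from 80% to 125% of the gene's own, at least as many matches were held by 0.633% for Tet1, 0.0691% for Tet2, 0.23% for Tet3, 1.48% for Dnmt3a, 0.34% for Tdg and 13.4% for Dnmt3b. These sets of like length, here and below, include the gene itself. They held 158 genes for Tet1, 1447 for Tet2 and 434 for Tet3, where the gene itself was the only one with as many. The sizes of these 3 shares therefore follow the sizes of the sets. The TET genes and Tdg together held 23 of the 29 matches. An adenine followed 8 of the 29 matches, 1 of 7 in Tet1, 2 of 5 in Tet2, 2 of 8 in Tet3, 1 of 3 in Tdg, 2 of 5 in Dnmt3a and 0 of 1 in Dnmt3b. Seed pairing is known to be more effective in that context, so a match of this kind was picked for printing in each gene that had one, and the only match of Dnmt3b is shown beside them. The match is in capitals, on GRCm38.
Tet1, chr10:62806032-62806060, minus strand: cttgaaggagaTGGTGCTagctgaacaat
Tet2, chr3:133466163-133466191, minus strand: ttaacattaaaTGGTGCTacaaatggtgt
Tet3, chr6:83364326-83364354, minus strand: agtctaataaaTGGTGCTatggtgtttca
Tdg, chr10:82649666-82649694, plus strand: tgcattttccaTGGTGCTacagacagcct
Dnmt3a, chr12:3911463-3911491, plus strand: gggtcccaagcTGGTGCTaattcctctca
Dnmt3b, chr2:153686616-153686644, plus strand: gtagcccggcaTGGTGCTcatgttctctt

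The miR-294 match, AGCACTT, was present in the TET genes and in none of the other 7. Tet3 held 3, Tet1 2 and Tet2 1, beside 15.8% of detected genes with any. Of these 6 matches 0 were followed by an adenine. Among 3′UTRs of like length, at least 1 match was held by 60.8% for Tet1, 30.9% for Tet2 and 56.9% for Tet3, so presence by itself does not set these genes apart. At least as many matches as in the gene itself were held by 26.6% for Tet1 and 7.14% for Tet3. The first match of each gene is printed, where the miR-17 match overlaps, as it also does at another of the 3 in Tet3.
Tet1, chr10:62811875-62811903, minus strand: atattttaaaaAGCACTTtctacttttaa
Tet2, chr3:133465904-133465932, minus strand: tgtcttagaaaAGCACTTtgcctacctaa
Tet3, chr6:83367833-83367861, minus strand: tcttcttccccAGCACTTtgaagaaacta
Dnmt1 and Uhrf1, whose 3′UTRs have 312 and 984 bases, each held 1 miR-148 match, and Tdg held 2, beside 13.9% of detected genes with any. Among 3′UTRs of like length at least 1 was held by 3.04% for Dnmt1, 12.1% for Uhrf1 and 20.7% for Tdg, and at least 2 by 3.28% for Tdg. The matches of Dnmt1 and Uhrf1 are printed as the examples from the maintenance genes.
Dnmt1, chr9:20907481-20907509, minus strand: agagccccacgTGCACTGatgtttttaac
Uhrf1, chr17:56323104-56323132, plus strand: ttttcagagagTGCACTGactgggtgtca
The miR-17 match was present in 4 of the 10 genes, beside 13.5% of detected genes, and the miR-26 match in 5, beside 10.4%. The miR-101 match was present in 2, beside 10.5%, and the miR-22 match in 5, beside 14.4%. These shares are not for 3′UTRs of like length. Among those, at least 1 match was held by 26.95% to 51.3% for miR-17, 15.1% to 47.5% for miR-26 and 20.1% to 38.4% for miR-101. For miR-22 it was 11.8% for Uhrf1 and 26.6% or more for the other genes with a match. Where a gene held 2 matches, at least 2 were held by 2.49% (miR-26, Tet2) to 17.7% (miR-17, Dnmt3a). Dnmt3l and Uhrf2 held no match to any of the 7 seeds in 3′UTRs of 273 and 858 bases.

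Promoters were described by their CpG dinucleotides (CG, the same on both strands) in RefSeq windows of 300 bases, 250 before and 50 after each start, of which 17 belonged to the 10 genes. The median over 32851 promoters was 7 CpG. The Tet2 promoter held 57, more than 99.8% of promoters. Dnmt3b held 30, Uhrf2 28, Tdg 26, Tet3 22 and Tet1 17. Dnmt3a had windows of 46, 47 and 18 CpG. Dnmt1 had windows of 2, 12 and 33 CpG at its different starts, and Uhrf1 windows of 12 and 33. Dnmt3l was the only one of the 10 with all of its windows below the median, at 6, 4 and 3 CpG, and it was also the gene with the highest level per unit length. Methylation of these promoters was not measured here.

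The genes that work beside the 10 were taken as 10 lists with 96 genes in the table, of which 90 were detected, beside 55.5% of protein-coding genes. The highest and lowest gene of a list are by mean CPM, which is not scaled to length, and by TPM some would differ. Per unit length Pcna, at 579 TPM, stood above Hells, at 406 TPM, and Fbxl19, at 61.4 TPM, above Kmt2a, at 28.7 TPM. Over these lists 1 gene, Mbd3, was over 2-fold higher in KO2, and 0 were over 2-fold lower, near the 0.98% and 0.0768% of all tested genes. Mbd3, a subunit of the NuRD complex, had 2656 counts in KO1 and 5828 in KO2, a log2 ratio of 1.19 at a GC content of 62.9%, and 0.21 after correction. After correction 0 of the lists' genes passed 2-fold in either direction. The counts of intervals below are before GC correction, and the shares of all tested genes beside them are not matched for depth.

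Maintenance partners were detected in 10 of 10. Hells, a remodeller needed for normal methylation, was the highest at 848 ± 182 CPM, and Trdmt1, a transfer RNA methyltransferase of the same protein family as DNMT1, the lowest at 12.3 ± 2.68 CPM. Regulators of the de novo enzymes were also all detected, from Mga, a DNA-binding partner of Max, at 405 ± 79.6 CPM to Zscan4c, a gene of a rare early-embryo-like state with near-identical copies, at 2.09 ± 0.387 CPM. Imprint protection had 6 of 7 detected, with Trim28, the corepressor of KRAB zinc finger proteins, at 1799 ± 403 CPM and Ctcfl, a testis paralogue of Ctcf, at 0.952 ± 0.0771 CPM. The interval of the ratio lay above no difference for 3 and below for 5 of the 10 maintenance partners, above for 1 and below for 5 of the 10 regulators, and above for 1 and below for 4 of the 7 imprint genes, beside 34.3% above and 31.2% below over all tested genes. Median log2 ratios were -0.06, -0.16 and -0.07 for these lists, and -0.05, -0.07 and -0.04 after GC correction.

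On the side of reading, genes listed under methyl-CpG and methyl-DNA readers were detected in 10 of 10. They ran from Mbd3 at 76.7 ± 42.4 CPM to Zbtb4 at 1.89 ± 0.065 CPM. A place on the list does not mean that a protein binds methylated CpG. Proteins that bind unmethylated CpG through a CXXC domain were detected in 7 of 8, from Kmt2a at 139 ± 2.65 CPM to Cxxc4, which was not detected, at 0.161 ± 0.0463 CPM. Of the reader list 3 had an interval above no difference and 6 below, with a median log2 ratio of -0.16, and -0.04 after GC correction. Of the 7 CXXC genes with enough counts 5 lay above and 0 below, beside the same 34.3% and 31.2%. The median log2 ratio of the CXXC list was 0.46 over 7 tested genes, beside 0.01 over all genes, and 0.07 after GC correction.

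On the side of removal, base excision repair genes were detected in 11 of 11, from Parp1 at 741 ± 115 CPM to the glycosylase Neil3 at 5.71 ± 1.505 CPM. TET partners and cofactor supply were detected in 12 of 12, from Nanog, a pluripotency factor known to bind TET1, at 619 ± 40.7 CPM to Idh2, a mitochondrial isocitrate dehydrogenase, at 44.2 ± 9.70 CPM. Of the cytidine deaminases and GADD45 genes 5 of 7 were detected, with Apobec3 the highest at 254 ± 11.2 CPM. Methyl donor synthesis was detected in 8 of 8, with Mat2a, which makes S-adenosylmethionine, the highest at 587 ± 77.9 CPM. Intervals lay above and below no difference for 5 and 4 repair genes, for 4 and 8 TET partners, for 3 and 2 deaminase and GADD45 genes, and for 5 and 3 methyl donor genes, beside 34.3% and 31.2% of all tested genes. After GC correction the median log2 ratio of the TET partners was -0.03 in place of -0.11, and that of the methyl donor genes 0.07 in place of 0.17. It was -0.06 in place of 0.00 for repair, and -0.08 in place of 0.02 for deaminase and GADD45 genes.

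Germline genes known to be silenced by promoter methylation in somatic cells were detected in 12 of 14. Tex19.1 was the highest at 101 ± 4.73 CPM and Rhox2a the lowest, with 2 counts in each library. Of 12 tested genes 2 lay above and 7 below no difference, beside 34.3% and 31.2% of all tested genes. The list's median log2 ratio was -0.24 and 0.03 after GC correction. The list shares Dazl and Ddx4 with the germ cell markers, of which 3 of 6 were detected.

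**Figure D5:**
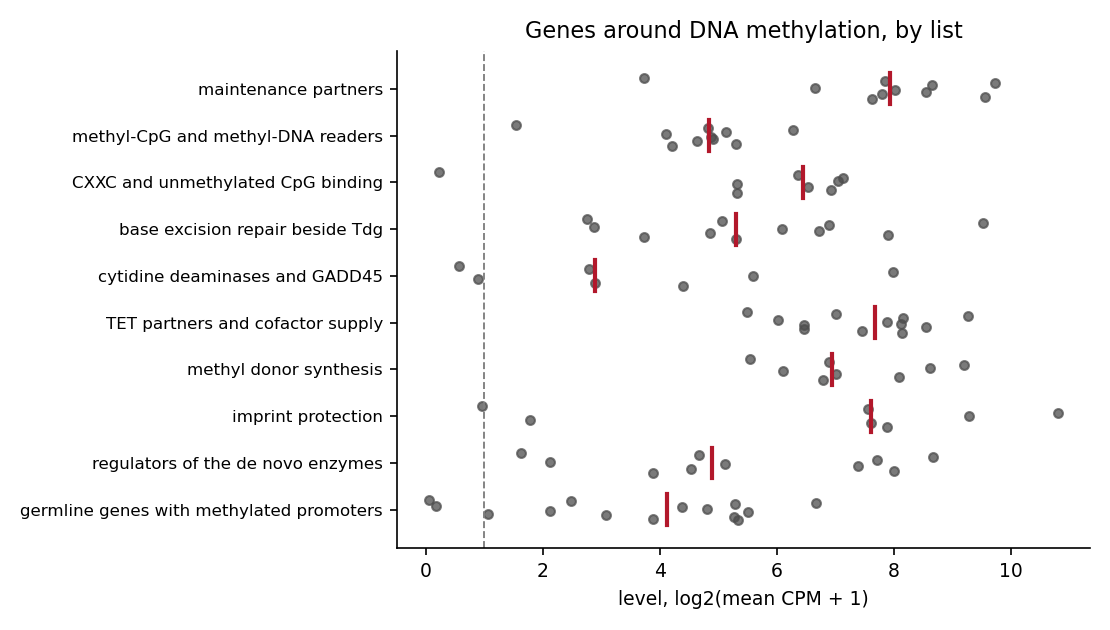
Level of each listed gene as log2(mean CPM + 1), with 1 point per gene, a red bar at the list's median and a dashed line at 1 CPM; the vertical scatter within a list has no meaning. Maintenance partners, TET partners and imprint protection have the highest medians, and cytidine deaminases with GADD45 and the germline genes the lowest.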

How the data were processed

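The deposited file is a single gene-by-library table of raw read counts, unscaled by the authors. Reads were placed on GRCm38, per the submitters' processing notes. Libraries followed a reverse-stranded polyA protocol, per the labels' protocols. The aligner, counter, strand setting and annotation remain not given in the sources used here. Of 55421 identifiers, 55154 were found in GENCODE M21, which gave names, positions, lengths, GC content and 3′UTRs.

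CPM were computed with TMM factors of edgeR 4.0.16 (0.996 and 1.00), and to TPM with merged exon lengths. DESeq2 1.42.0 size factors were an alternative, but they were 1 for both libraries and so left the counts unscaled. With 1 group no test was made. The KO2 over KO1 ratio used a prior count of 0.5 and an exact conditional binomial 95% interval, and genes had at least 50 summed counts. The interval of the summed-count balance is a normal approximation on the log odds. The loess GC correction had a span of 0.3. The ratio rule and the GC correction were tested on simulated Poisson counts, with and without a linear GC trend. Levels, shares, balances and seed matches were not tested in this way. R 4.3.3, python 3.11.15, scipy 1.17.1, statsmodels 0.14.6 and bedtools 2.31.1 were used.

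The members and lists were chosen with earlier results of these data known. Named were all 10 members, Ago1, and of each list the highest and lowest gene by mean CPM and any gene past 2-fold. For 2 lists the lowest gene is not reported here. Gm14490 of the maintenance list was not matched, and Oga was matched as Mgea5.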

Additional observations from a re-analysis of the deposited data

How the results depend on the processing

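All 10 genes were detected at 0.5 and 5 CPM, under other scalings and in each library alone. Members past the fold limit numbered 0 at 1.5-fold, 2-fold and 3-fold, under the other scalings and after GC correction. With the DESeq2 factors the log2 ratio of KO2 over KO1 was 0.20 for Dnmt1 and -0.38 for Tet1, in place of 0.26 and -0.32. The number of genes differing between the libraries was 165 at 2-fold, 1031 at 1.5-fold, 24 at 3-fold and 41 after GC correction. The GC-corrected log2 ratio turned direction for Dnmt1 (-0.028 with span 0.3, -0.039 with span 0.6, -0.058 with GC content of merged exons), Dnmt3l (-0.041, -0.052 and -0.087) and, with span 0.6, Dnmt3b (-0.0060). With merged exons it also turned for Uhrf2 (0.043) and Tet2 (0.088). The mean log2 balance of 0.87 became -0.28 without length scaling, 2.36 with Dnmt3l, 2.73 with all 6 writers and cofactors over all 4 erasers, and -0.026 for Dnmt3a and Dnmt3b alone. The difference in balance of 0.52 became 0.49 with Dnmt3l, 0.050 after GC correction and, in alternatives chosen after seeing the data, 0.048 with span 0.6 and 0.026 with merged exons. Shares with the longest transcript as length and without length were 45.8% and 47.1% for Dnmt1, 12.5% and 21.2% for Dnmt3a, 41.7% and 31.6% for Dnmt3b, 76.9% and 59.8% for Dnmt3b of the de novo pair, 51.9% and 62.7% for Tet1, 46.2% and 35.6% for Tet2, and 88.03% and 88.2% for Uhrf1. Of the neighbour pairs in the order of levels, 6 in place of 7 were apart with the longest transcript or without length. The ranks of 8 of the 10 genes were kept with the longest transcript and of 4 without length, where Tet1 (583 CPM) stood above Dnmt3l (574 CPM). The order without TMM was not run, since TPM uses no TMM factor. With a single group there were no pairs to block on.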
